A study of Mus musculus with 3 samples.

Results

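Exocrine gland-secreted peptides (ESPs) are small peptides that rodent lacrimal and salivary glands release into their fluids. They are detected by sensory neurons of the vomeronasal organ, and ESP1 in the tears of male mice is the best-known of them. The genes lie in one cluster, and the lacrimal gland (LG) is among their main sites of expression. The 4 genes described here, *Esp6*, *Esp15*, *Esp16* and *Esp18*, were taken by name from the count tables, as 4 of 32285 gene rows and 4 of the 15 rows of the *Esp* family. Of all *Esp* UMIs (unique molecular identifiers, counted mRNA molecules) in the kept cells, *Esp6* held 44.5%, *Esp15* 28.3%, *Esp16* 12.0% and *Esp18* 11.4%.

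Single-cell RNA sequencing was performed on LGs of C57BL/6J mice aged 2 months, with no treatment named. The LGs of 3 mice were pooled for each of 3 libraries, which comprised 1 female library and the male libraries Male_1 and Male_2. The female and male libraries were prepared at different cores on different days, so sex, core and day coincide and cannot be told apart, and the sexes were not tested against each other. Replication between cell classes is over the 3 pools, with the library as a block. A p-value therefore rests on the spread of the class difference across these pools only, together with counting error. The fits also moderate the dispersion of each gene with that of the other genes. A small p-value thus does not come from the spread of that gene over 3 pools alone.

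Between 5295 and 7652 cells per library were kept, with 37641576 to 55390678 UMIs in all and a median of 1788 to 3252 UMIs per cell. At most 18 cell barcodes were shared between any pair of libraries. *Xist* had 21688 UMIs in the female library and 0 and 2 in the male libraries, as labelled. Free RNA was abundant, since 55570 to 66339 barcodes per library that were not called as cells still carried 500 to 2000 UMIs, with medians of 738 to 1037. Between 49.96 and 56.2% of these UMIs came from 6 secretory genes of acinar cells that served as a reference, namely the secretoglobins *Scgb2b2*, *Scgb1b2* and *Scgb2b24*, mucin-like *Mucl2*, prolactin-induced *Pip* and *Gm1553*. Cells were therefore described on 2 scales. The first is CPM, the UMIs of a gene scaled to the total UMIs of the class in the usual depth-normalised unit, and the second is UMIs per 1000 UMIs of the 6 reference genes. RNA from a single source keeps the second ratio in every cell type it reaches.

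Cell classes were rebuilt by clustering without tear-product genes (all *Esp* genes included) other than the markers, and each was named "-like" from its markers. The main acinar-like cells numbered 3709 and were divided within each library into RNA-rich cells (the deepest 1 in 3) and, among the rest, cells of low or high mitochondrial share. Tfrchi-like (427 cells) and Car6hi-like (281 cells) were smaller acinar-like groups. Ltf+-like cells (851), duct-like cells (1641), myoepithelial (MEC)-like cells (931) and the classes outside the epithelium completed the set. In the male libraries 93.0 and 95.9% of Tfrchi-like cells and 95.3 to 96.3% of duct-like and MEC-like cells had at most 3000 UMIs, close to the depth of the uncalled barcodes. The same held for 88.7 to 97.1% of cells in the male classes outside the epithelium and for 64.8 and 65.5% of male Ltf+-like cells.

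All 4 genes lie on the plus strand of chromosome 17 in mm10 (GRCm38), each with 3 exons and a coding sequence in exons 2 and 3. *Esp18* lies at chr17:39406359-39410992, *Esp16* at chr17:39536142-39540847, *Esp15* at chr17:39640954-39645666 and *Esp6* at chr17:40561507-40565627. The 15 family genes span 2.315 Mb. *Esp15* and *Esp16* are close copies whose coding sequences were identical at 247 of 258 bases (95.7%). *Esp18* matched them at 73.6 and 75.0% of coding alignment columns (gaps counted), and *Esp6* at 43.8 and 42.6%. The coding sequences of the close pair (GENCODE) are shown because the level of *Esp16*, but not that of its copy *Esp15*, differed strongly between the female and male libraries. Capitals mark the bases at which they differ.
Esp15: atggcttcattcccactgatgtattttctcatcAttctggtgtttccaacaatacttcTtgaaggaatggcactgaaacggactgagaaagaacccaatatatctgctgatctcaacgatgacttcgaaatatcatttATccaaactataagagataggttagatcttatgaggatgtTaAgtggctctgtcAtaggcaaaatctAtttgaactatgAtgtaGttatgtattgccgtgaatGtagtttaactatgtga
Esp16: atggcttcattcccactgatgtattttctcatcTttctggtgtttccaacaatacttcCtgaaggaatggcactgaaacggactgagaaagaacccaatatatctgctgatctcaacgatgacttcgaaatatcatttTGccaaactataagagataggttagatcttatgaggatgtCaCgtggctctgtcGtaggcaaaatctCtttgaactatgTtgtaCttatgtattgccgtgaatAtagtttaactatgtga

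In the last 500 bases of the transcript, from which 3′ libraries are read, the pair was identical at 487 of 503 alignment columns (gaps counted), and 17 of 411 windows of 90 bases (4.14%) occurred in both. Most reads of such a length can thus be told apart, although the length used in counting is not given in the sources used here. Reads of *Esp15* and *Esp16* that could not be assigned would be lost in counting, so their levels are less certain than those of *Esp6* and *Esp18*. *Esp6* overlaps the read-through gene *Gm44501*, which had 100 to 139 UMIs per library. The promoters of the pair (RefSeq, GRCm38.p6, 250 bases before to 50 after the start) were identical at 286 of 307 alignment columns (93.2%). The other columns were 7 substitutions and 14 gaps, which include unpaired bases at the start and near the end of the windows. There the windows are offset against each other, so these unpaired bases need not be differences between the promoters. The promoters lie at chr17:39640707-39641006 and chr17:39535892-39536191, and capitals mark bases that differ or have no partner.
Esp15 promoter: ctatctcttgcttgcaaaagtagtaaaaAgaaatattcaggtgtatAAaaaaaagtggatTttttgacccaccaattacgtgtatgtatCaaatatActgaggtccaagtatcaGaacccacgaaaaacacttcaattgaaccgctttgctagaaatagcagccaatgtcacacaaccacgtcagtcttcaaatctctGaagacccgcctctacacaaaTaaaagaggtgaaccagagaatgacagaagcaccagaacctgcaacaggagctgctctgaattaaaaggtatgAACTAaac
Esp16 promoter: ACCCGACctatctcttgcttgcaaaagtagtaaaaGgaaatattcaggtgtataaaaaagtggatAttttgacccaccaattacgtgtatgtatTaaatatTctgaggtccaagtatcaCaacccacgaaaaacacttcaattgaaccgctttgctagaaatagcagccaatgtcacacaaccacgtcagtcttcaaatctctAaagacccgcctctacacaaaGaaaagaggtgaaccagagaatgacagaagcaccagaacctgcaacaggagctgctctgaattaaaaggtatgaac

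Main acinar-like cells, which make the bulk of the tear proteins, carried all 4 transcripts at high levels, except for *Esp16* in the female library. *Esp6* was at 10724 CPM in the female library, 12483 in Male_1 and 10909 in Male_2 (11372 ± 967, SD, n = 3). *Esp15* was at 6483, 8542 and 7296 CPM in the same order (7440 ± 1037, SD, n = 3). *Esp18* was at 3697, 2425 and 2169 CPM (2763 ± 818, SD, n = 3). *Esp16* was at 49.6 CPM in the female library against 5107 and 4571 CPM in the male libraries. The order *Esp6*, *Esp15*, *Esp18* was the same in every library, and these levels did not overlap. In the male libraries *Esp16* stood between *Esp15* and *Esp18*. The RNA-rich cells alone held 55.5 to 71.2% of the UMIs of each gene in each library. They were chosen as the deepest cells, so they hold a large part of all UMIs as well. That part was 23011213 of 55390678 kept UMIs in the female library, 22280260 of 37641576 in Male_1 and 22809142 of 41269825 in Male_2.

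**Figure D1:**
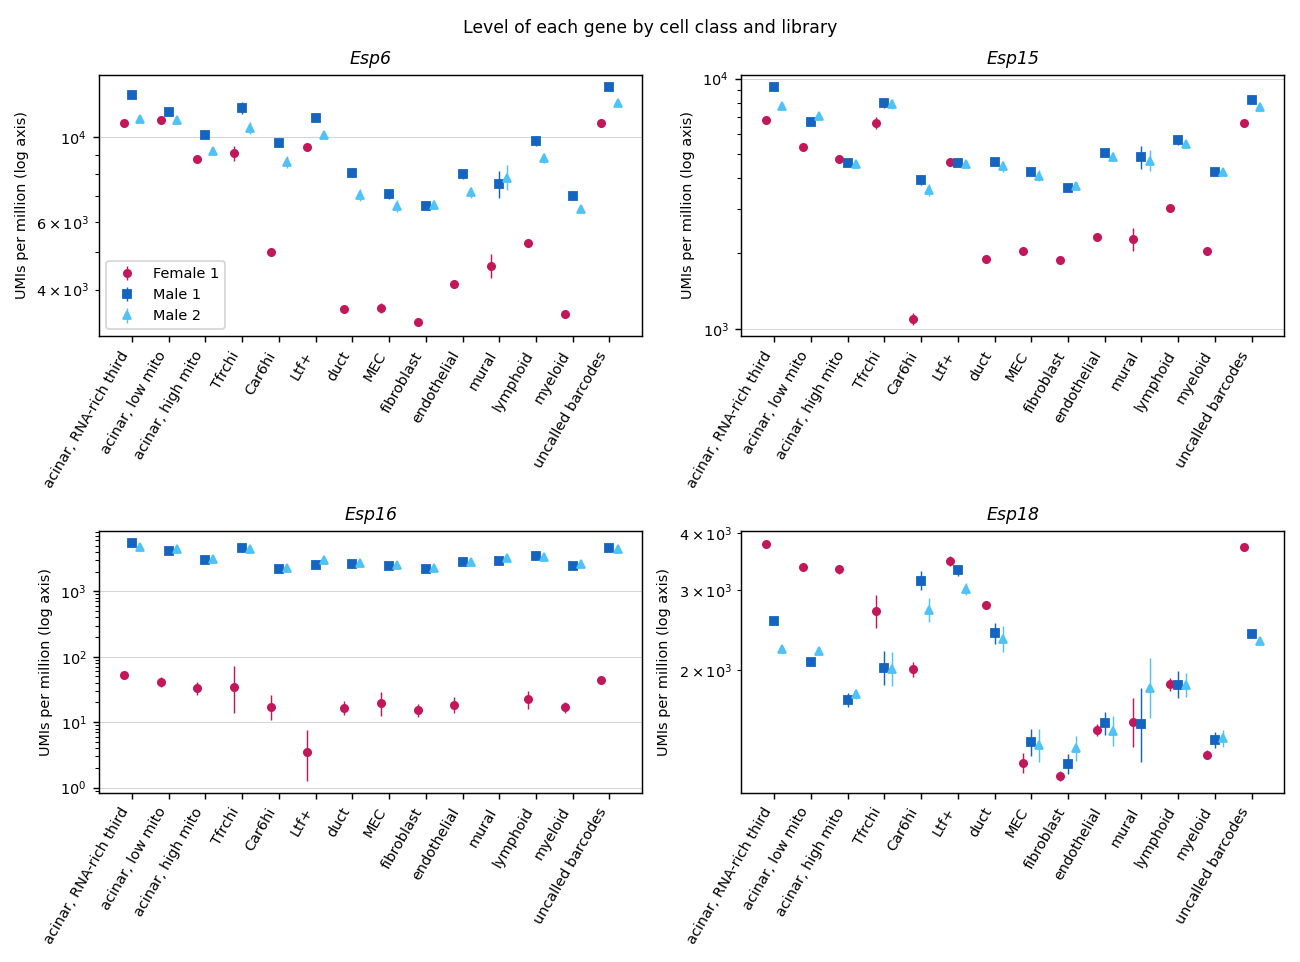
Level of *Esp6*, *Esp15*, *Esp16* and *Esp18* (UMIs as CPM, log axis) in each cell class and in uncalled barcodes with 500 to 2000 UMIs, with 1 point per library and 95% exact Poisson intervals that cover counting error only. *Esp16* of the female library lies at 0 to 52.6 CPM in every class and below both male libraries in each. Its mural value of 0 is not drawn.

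Within the main acinar-like cells, the RNA-rich cells carried more of each gene. *Esp15* was at 6839, 9260 and 7742 CPM in the RNA-rich cells of the female library, Male_1 and Male_2, against 5095, 6091 and 6153 CPM in the other main acinar-like cells. *Esp16* in the male libraries was at 5495 and 4821 CPM against 3782 and 3932 CPM. For *Esp6* and *Esp18* the differences were smaller, with *Esp6* at 10891, 12861 and 11107 CPM against 10071, 11192 and 10401 CPM. The RNA-rich value was the higher of the pair for every gene in every library. That did not hold against the cells of low mitochondrial share alone. There *Esp6* was at 11041, 11652 and 11094 CPM, so the RNA-rich value was lower in the female library and nearly equal in Male_2. *Esp18* was nearly equal in Male_2 too, at 2218 CPM in RNA-rich and 2201 CPM in low-share cells. With TMM scaling (edgeR's quasi-likelihood test, adjusted over all genes), all 4 genes were called higher, where 19.8% of the 8481 genes tested were. The log2 fold changes were 1.33 ± 0.26 (SE, adjusted p = 2.1e-04) for *Esp15* and 1.32 ± 0.24 (adjusted p = 9.1e-05) for *Esp16*. Those of *Esp18* and *Esp6* were 1.09 ± 0.23 (adjusted p = 4.8e-04) and 1.01 ± 0.27 (adjusted p = 0.0037). Set against the 6 reference genes, *Esp15* (0.36 ± 0.08, adjusted p = 1.0e-04) and *Esp16* (0.34 ± 0.09, adjusted p = 0.0012) were still called higher, where 0.165% of genes were, whereas *Esp6* (0.04 ± 0.08) and *Esp18* (0.13 ± 0.09) were not. With TMM scaling 1 of the 4 was called without Male_2 and 3 without Male_1.

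Among the remaining main acinar-like cells, those with a high mitochondrial share carried less *Esp15*. It was at 4759, 4609 and 4536 CPM in the high-share cells and at 5345, 6715 and 7077 CPM in the low-share cells, and these groups did not overlap. *Esp6* was at 8770, 10100 and 9188 CPM against 11041, 11652 and 11094 CPM. The 4 genes were called lower with TMM scaling (log2 fold changes of -1.78 to -1.53, adjusted p from 5.0e-05 to 3.6e-04), where 16.2% of the 5707 genes tested were. None of the 4 was called relative to the reference genes (edgeR's quasi-likelihood test), although 74.9% of all genes were, and *Esp15* was at -0.26 ± 0.12 (unadjusted p = 0.053) and *Esp16* at -0.25 ± 0.12 (unadjusted p = 0.069). At an unadjusted p under 0.05 the count was also 0. Without Male_2, 0 of the 4 were called with TMM scaling.

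The scaling sets how these changes read. Acinar-like RNA is dominated by a few tear products, and TMM scaling places the median log2 change of all genes between -0.17 and 0.10 in the 7 comparisons of classes. Relative to the 6 reference genes that median moved to between -1.06 and 3.23. A gene that is lower with TMM scaling can thus be higher per reference UMI, and both are given below.

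Tfrchi-like cells are acinar-like cells led by the transferrin receptor gene *Tfrc*. They held *Esp15* at 6661, 7992 and 7926 CPM and *Esp6* at 9064, 11914 and 10561 CPM, close to the values in all other acinar-like cells (6257, 8458 and 7252 CPM for *Esp15*, 10484, 12432 and 10881 CPM for *Esp6*). With TMM scaling all 4 genes were called lower, by 2.18 to 2.50 on the log2 scale (adjusted p from 4.2e-05 to 0.0064), where 20% of the 8497 genes tested were. Without Male_1 the count was 2 and without Male_2 it was 0 of the 4. Per reference UMI the direction flipped for all 4, and *Esp15* (0.45 ± 0.12, adjusted p = 3.4e-04) and *Esp6* (0.30 ± 0.10, adjusted p = 0.0075) were called higher, as were 60.5% of all genes tested. With total UMIs as the scale 0 of the 4 were called (edgeR, 0 at an unadjusted p under 0.05), and *Esp15* was at 0.05.

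Car6hi-like cells, an acinar-like group with high carbonic anhydrase 6, differed among the 4 genes. *Esp15* was at 1097, 3928 and 3597 CPM there and at 6484, 8537 and 7301 CPM in all other acinar-like cells. *Esp6* was at 5023, 9662 and 8608 CPM against 10713, 12478 and 10906 CPM. *Esp18* was at 2005 CPM against 3690 CPM in the female library but at 3143 and 2705 CPM against 2421 and 2167 CPM in the male libraries. Thus *Esp15* and *Esp6* were lower in every library, while *Esp18* was lower in the female library only and higher in both male ones. With TMM scaling all 4 were called lower, where 3.41% of the 8435 genes tested were. *Esp15* fell by 2.46 ± 0.29 on the log2 scale (adjusted p = 5.5e-10), *Esp16* by 2.14 ± 0.25 (adjusted p = 1.0e-09), *Esp6* by 1.49 ± 0.28 (adjusted p = 7.2e-05) and *Esp18* by 0.95 ± 0.25 (adjusted p = 0.0080). The call of *Esp18* was lost in DESeq2 (adjusted p = 0.19), without Male_1 (edgeR, adjusted p = 0.11) and without Male_2 (adjusted p = 0.13). Without Male_2 the call of *Esp6* was lost as well (adjusted p = 0.072), which left 2 of the 4.

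Per 1000 reference UMIs, *Esp18* in Car6hi-like cells was at 13.3, 10.1 and 8.54, against 7.33, 4.60 and 3.99 in all other acinar-like cells. It was higher in every library and was called higher (1.03 ± 0.36, adjusted p = 0.0088), so its direction flipped with the scaling. On this scale 67.5% of all genes tested were called higher. *Esp6* flipped too (0.49 ± 0.36, adjusted p = 0.21), while *Esp15* (-0.48 ± 0.36) and *Esp16* (-0.19 ± 0.36) did not, and none of these 3 was called.

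In Ltf+-like cells, the lactoferrin-rich duct group, *Esp18* was at 3480, 3316 and 3015 CPM against 3445, 2413 and 2165 CPM in all other epithelial cells. *Esp6* was at 9426, 11230 and 10135 CPM against 9463, 12242 and 10780 CPM. *Esp15* was lower in each library, at 4652, 4601 and 4574 CPM against 5626, 8301 and 7185 CPM. These values do not overlap. With TMM scaling all 4 were called lower, where 7.64% of the 10944 genes tested were, with *Esp18* at -1.19 ± 0.26 (adjusted p = 0.016), *Esp6* at -1.58 ± 0.35 (adjusted p = 0.016), *Esp15* at -2.11 ± 0.39 (adjusted p = 0.0078) and *Esp16* at -3.00 ± 0.35 (adjusted p = 8.8e-04). With over 3000 UMIs per cell, a limit chosen after seeing the data, only *Esp16* of the 4 was called (adjusted p = 0.023). The count was also 1 without Male_1 and 1 without Male_2.

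Per 1000 reference UMIs, *Esp18* was at 10.5, 11.3 and 8.28 in Ltf+-like cells and at 7.82, 4.69 and 4.05 in all other epithelial cells. It was called higher (0.91 ± 0.36, adjusted p = 0.019), the opposite of the TMM direction and the side on which 73.8% of genes were called, and with total UMIs it was at 0.32 ± 0.32. *Esp6* stood at 28.4, 38.2 and 27.8 against 21.5, 23.8 and 20.2 (0.52 ± 0.28, adjusted p = 0.086). *Esp16* was called lower on both scales, at -0.91 ± 0.41 per reference UMI (adjusted p = 0.038, with 0.567% of genes called lower), and the female library was the farthest from its comparison cells. It had 6 UMIs in the 85 female Ltf+-like cells, or 3.46 CPM (95% exact Poisson interval 1.27 to 7.53), against 43.6 CPM in the other female epithelial cells. In the male libraries *Esp16* per 1000 reference UMIs was at 8.57 and 8.26 against 9.62 and 8.41.

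Duct-like cells, the *Krt14*- and *Wfdc2*-expressing ducts, carried less of 3 of the genes in CPM. *Esp6* was at 3559, 8072 and 7062 CPM against 10176, 12269 and 10792 CPM in all other epithelial cells. *Esp15* was at 1898, 4646 and 4455 CPM against 6027, 8188 and 7097 CPM. *Esp18* differed little, at 2772, 2404 and 2339 CPM against 3528, 2457 and 2202 CPM. With TMM scaling all 4 were called lower, where 21.2% of the 10821 genes tested were, by 2.38 ± 0.24 for *Esp18* (adjusted p = 2.0e-07) and by 3.19 to 3.33 for the others. Per reference UMI only *Esp18* was called, and it was higher (0.85 ± 0.31, adjusted p = 0.0081), where 89.5% of genes were. Its ratio was 17.6 per 1000 in the female library and 7.23 and 6.999 in the male ones, against 7.53, 4.84 and 4.16. Both duct-like clusters showed it, at 18.8, 7.19 and 7.53 in one and 16.4, 7.28 and 6.45 in the other.

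MEC-like cells, the contractile sheath of the acini, showed no such excess. *Esp18* was at 1246, 1386 and 1363 CPM against 3518, 2476 and 2214 CPM, and all 4 genes were called lower with TMM scaling (by 3.24 to 3.35 on the log2 scale), where 16.6% of the 11137 genes tested were. Relative to the reference genes 0 of the 4 were called by edgeR, against 91.1% of all genes, with 0 at an unadjusted p under 0.05, and the log2 changes lay between -0.10 and 0.00068, the latter for *Esp6*, whose sign thus turned.

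**Figure D2:**
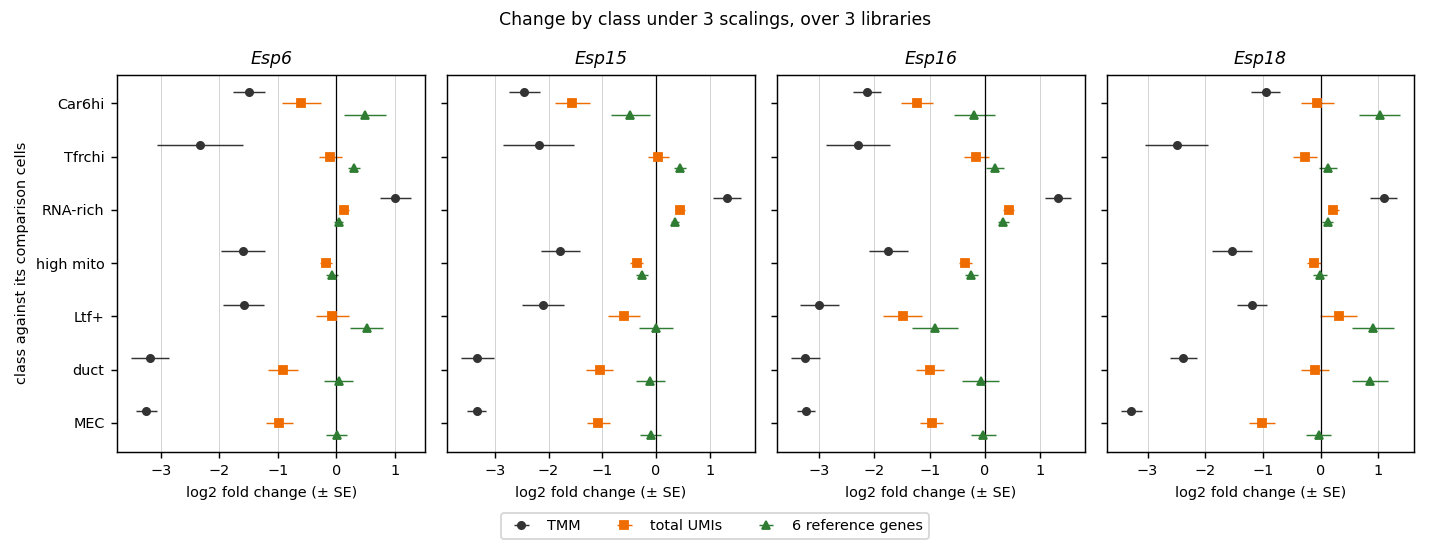
Log2 fold change of each gene (± SE, 3 libraries) for each class against its comparison cells, with TMM, total-UMI or reference-gene scaling. With TMM scaling the genes lie below 0 in every class but the RNA-rich cells, and with reference-gene scaling *Esp18* lies above 0 in Car6hi-like (1.03), Ltf+-like (0.91) and duct-like (0.85) cells, so the direction depends on the scaling.

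The comparison with free RNA asked whether a class carried a gene above or below the ratio to the reference genes found in free RNA. In uncalled barcodes with 500 to 2000 UMIs, *Esp6* was at 10867, 13516 and 12278 CPM, *Esp15* at 6625, 8210 and 7704 CPM and *Esp18* at 3725, 2395 and 2320 CPM. These are close to the levels of the main acinar-like cells. *Esp16* was at 43.8, 4545 and 4399 CPM, so its contrast between the libraries was also present outside cells. In each library the ratio of a class to reference UMIs was divided by that of these barcodes.

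For *Esp18* this quotient was 1.78, 2.32 and 2.07 in Car6hi-like cells (2.06 ± 0.27, SD, n = 3). It was 1.41, 2.60 and 2.00 in Ltf+-like cells (2.00 ± 0.60) and 2.35, 1.67 and 1.69 in duct-like cells (1.91 ± 0.39). In MEC-like, fibroblast-like, endothelial-like, mural-like, lymphoid-like and myeloid-like cells it lay between 0.946 and 1.08 in every library. The 3 epithelial classes were thus above all of these in each library. The summed level of 8 Ltf+ markers (CPM with tear-product genes left out of the total) was also high in the same 3 classes, at 13786, 36632 and 25607 in Car6hi-like cells, 90920, 134610 and 132820 in Ltf+-like cells and 18258, 9629.5 and 9468 in duct-like cells. In the MEC-like and non-epithelial classes it lay between 187.3 and 1598.1, and what part Ltf+-like cells or their RNA played in the *Esp18* values was not tested. The list includes *Wfdc18*, which the paper also reports in its other ductal clusters and in *Car6*-high cells. The sum is thus not specific to Ltf+-like cells, and single markers are not given here. The male duct-like cells were shallow, as were the male MEC-like and non-epithelial cells, and what part that played was not tested.

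Against free RNA taken from barcodes with 10 to 100 UMIs, *Esp18* was called higher in Car6hi-like (1.17 ± 0.41, adjusted p = 0.021), Ltf+-like (1.10 ± 0.32, adjusted p = 0.0019) and duct-like cells (1.05 ± 0.33, adjusted p = 0.0016). Of all genes tested, 60.5, 67.9 and 92.8% were called higher in these 3 fits, so a call is usual there. With TMM in place of the reference genes *Esp18* was at -0.42 in Ltf+-like and -1.62 in duct-like cells, so that the direction flipped, and in Car6hi-like cells it was not called. Against the 500 to 2000 UMI barcodes, a choice made after seeing the data, the changes were 1.03 ± 0.31 (adjusted p = 0.0014), 0.96 ± 0.25 (adjusted p = 1.9e-04) and 0.91 ± 0.23 (adjusted p = 8.7e-05), where 79.7, 94.7 and 94.8% of genes were called higher. Libraries were left out only in the fits against the 10 to 100 UMI barcodes. There the call in Car6hi-like cells was lost without Male_1 and without Male_2, where 0 of the 4 genes were called. Both fits also left 0 of 4 in Ltf+-like and in duct-like cells. Without the female library all 4 genes were called in duct-like cells and 2 of 4 in Car6hi-like cells.

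*Esp6* followed in part. Its quotient was 1.53, 1.27 and 1.24 in Car6hi-like cells and 1.31, 1.56 and 1.27 in Ltf+-like cells, but 1.04, 0.993 and 0.966 in duct-like cells. In Ltf+-like cells it was called higher than free RNA (0.70 ± 0.32, adjusted p = 0.041, and 0.46 ± 0.22, adjusted p = 0.040, against the deeper barcodes). In Car6hi-like cells it was not (adjusted p = 0.17 and 0.21). *Esp16* in Ltf+-like cells was at 0.27 ± 0.37 (adjusted p = 0.48) against the 10 to 100 UMI barcodes but was called lower than the deeper ones (-0.62 ± 0.28, adjusted p = 0.032, with 0.131% of genes called lower), so its direction turned with the barcodes chosen. *Esp15* had a quotient of 0.548, 0.847 and 0.828 in Car6hi-like cells and 1.65, 1.21 and 1.31 in Tfrchi-like cells.

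The other classes tested against free RNA also held *Esp* transcripts, while Tfrchi-like and mural-like cells were not tested against it. In MEC-like, fibroblast-like, endothelial-like, lymphoid-like and myeloid-like cells 0 of the 4 genes passed against either set of barcodes (edgeR's quasi-likelihood test), with 0 at an unadjusted p under 0.05. Of all genes tested against barcodes with 10 to 100 UMIs, 95.1, 93.6, 92.2, 73.1 and 84.7% were called in either direction in these 5 fits, in the same order, and against the deeper barcodes 94.2, 93.3, 92.1, 80.6 and 90.5%. The myeloid-like quotient of *Esp6* was 0.928, 0.929 and 0.904 and that of *Esp15* was 0.897, 0.926 and 0.935. Main acinar-like cells also had 0 calls against the 10 to 100 UMI barcodes (5.57% of genes called), with *Esp16* at an unadjusted p of 0.014 and *Esp15* at 0.028. The free RNA resembles acinar-like RNA and the scale is set by acinar genes. This fit therefore cannot show whether main acinar-like cells express the 4 genes. Without the female library, which had the fewest barcodes of this kind (2454), 2 of 4 genes were called in main acinar-like, endothelial-like, lymphoid-like and myeloid-like cells and 4 of 4 in MEC-like cells, all higher than free RNA. These changes were at most 0.57 on the log2 scale. With TMM in place of the reference genes the direction turned outside the acini, where 4 of 4 were called lower in MEC-like, fibroblast-like, endothelial-like, lymphoid-like and myeloid-like cells, while 4 of 4 were called higher in main acinar-like cells. In main acinar-like cells *Esp16* alone was called against the deeper barcodes, at 0.17 ± 0.05 (adjusted p = 0.046), where 25.1% of genes were called higher.

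**Figure D3:**
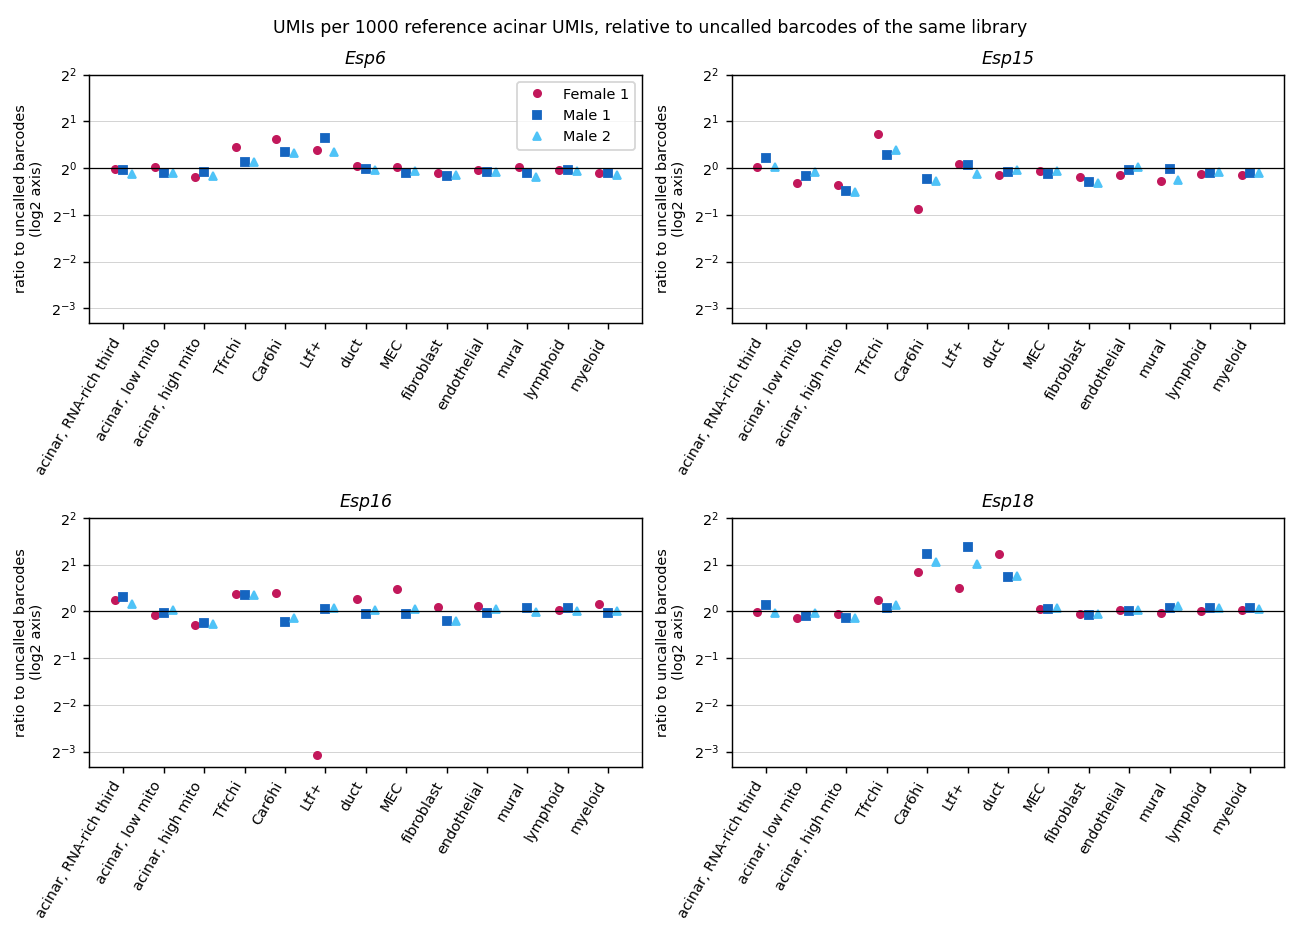
UMIs per 1000 UMIs of the 6 reference genes in each class, divided by the same ratio in uncalled barcodes with 500 to 2000 UMIs (log2 axis, 1 point per library, the line marks equality). *Esp18* stands above the line in Car6hi-like, Ltf+-like and duct-like cells of every library, and the non-epithelial classes lie near it. The lone low point is *Esp16* in female Ltf+-like cells, at 0.119, and its mural value of 0 in the female library is not drawn.

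Of the 4 genes, *Esp16* differed most between the female and male libraries. Main acinar-like cells of the female library had 1433 *Esp16* UMIs among 592 cells, against 147116 among 1339 and 144955 among 1778 cells in the male libraries. The log2 ratio of the female CPM to the male mean was -6.61, where the male libraries differed from each other by an SD of 0.11. The ratio was at or below -6.53 in the main acinar-like cells under every alternative, and between -9.64 and -7.00 in Tfrchi-like, Car6hi-like, Ltf+-like, duct-like and MEC-like cells. *Esp15* did not share it, at -0.29 (SD between male libraries 0.16), nor did *Esp6* at -0.13 (SD 0.14). *Esp18* went the other way, at 0.69 (SD 0.11). Relative to the reference genes the 4 ratios were -0.04 for *Esp6*, -0.21 for *Esp15*, -6.53 for *Esp16* and 0.77 for *Esp18*. With tear-product genes left out of the total they were -0.67, -0.83, -7.15 and 0.14 in that order.

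In Car6hi-like cells the female to male log2 ratio of CPM was -0.54 for *Esp18*, -0.86 for *Esp6* and -1.78 for *Esp15*. It was 0.14 for *Esp18* in Ltf+-like cells and 0.23 in duct-like cells. Per 1000 reference UMIs the direction turned in Car6hi-like cells for *Esp18*, at 13.3 in the female library against 10.1 and 8.54, and for *Esp6*, at 33.3 against 31.0 and 27.2, but not for *Esp15*, at 7.27 against 12.6 and 11.4. In duct-like cells the female *Esp18* value of 17.6 stood further above the male 7.23 and 6.999 on this scale than in CPM. The reference genes also took a smaller share of Car6hi-like UMIs in the female library, at 15.1% against 31.2 and 31.7%. Whether sex, core, day or the makeup of each class lay behind any of these cannot be told apart with 1 female library.

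The ratio of *Esp16* to *Esp15* differed far more between libraries than between classes of a library. It was 0.765% in the main acinar-like cells of the female library and 59.8 and 62.7% in those of the male libraries. In female cells it was 0.813% in fibroblast-like and 0.823% in myeloid-like cells, 1.58% in Car6hi-like cells and 0.0743% in Ltf+-like cells, and no *Esp16* UMI was found in the 50 mural-like cells (up to 17.9 CPM is allowed by 0 counts). Across the classes of the male libraries it ranged from 54.8 to 68.0%.

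The few female *Esp16* UMIs were concentrated in single cells. Of 592 main acinar-like cells 468 had none, 98 had 1 to 3 and 18 had at least 10, and those 18 cells held 88.2% of the UMIs. The highest had 356, 255 and 130 UMIs, and the first of them contained 139673 UMIs in all, 1378 of them *Esp15*. That cell was at 2549 CPM. In the male libraries the 10 richest cells held 4.34 and 2.97% of the *Esp16* UMIs, against 78.0% in the female library. Whether these cells were doublets or held misassigned *Esp15* reads was not tested.

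**Figure D4:**
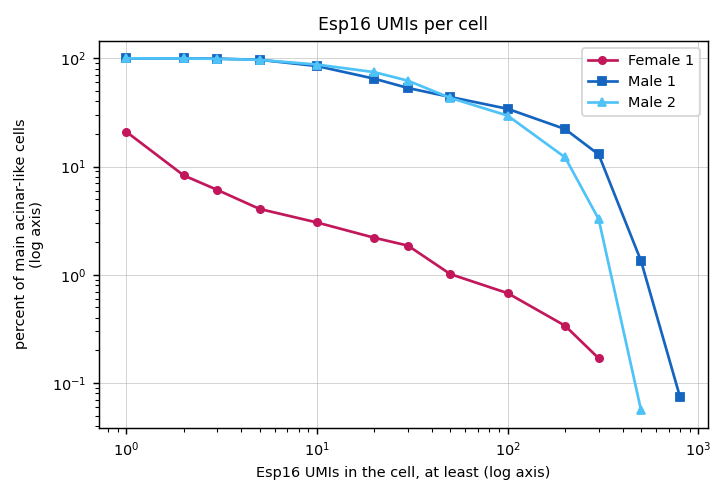
Percent of main acinar-like cells (log axis) that held at least a given number of *Esp16* UMIs (log axis), by library. In the female library, 20.95% of cells held 1 or more and 3.04% held 10 or more, while the male curves start at 99.9 and 100%.

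After thinning each cell to 1000 UMIs, *Esp6* was present in 100, 100 and 99.9% of main acinar-like cells of the female library, Male_1 and Male_2. *Esp15* was in 95.8, 99.3 and 99.0%, *Esp18* in 95.8, 85.8 and 83.9% and *Esp16* in 2.89% (95% exact binomial interval 1.69 to 4.59), 95.8 and 96.5%. The shallower cells left out numbered 4, 0 and 0. Without thinning, *Esp16* was in 20.95% (124 of 592), 99.9% and 100% of cells. Myeloid-like cells, which should lack these genes, had *Esp16* in 1.80, 90.7 and 89.2% of thinned cells and *Esp6* in 92.9, 99.8 and 99.2%, with a median depth of 3584, 1767 and 1428 UMIs against 25384.5, 9989 and 9454.5 UMIs in acinar-like cells. *Esp15* was in 84.6, 97.6 and 96.3% of these myeloid-like cells and *Esp18* in 68.3, 76.4 and 70.8%. Lymphoid-like cells had *Esp18* in 80.6, 81.1 and 83.5% of thinned cells and *Esp16* in 2.81, 96.8 and 96.3%. Shares at or below these levels cannot be told from background by this measure, and shares near 100% cannot rise further with the level. The acinar-like share of *Esp18* was above the myeloid-like one in each library, most so in the female one. In Male_2 it was close to the lymphoid-like share. The acinar-like share of *Esp16* was close to the lymphoid-like one in every library. Without thinning, main acinar-like cells held 2.42, 109.87 and 81.5 *Esp16* UMIs per cell. Lymphoid-like cells, which were shallower, held 0.0554, 5.26 and 4.44. Close shares thus do not mean close levels per cell. The male shares of *Esp6* and *Esp15* differed from the myeloid-like ones by little.

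The spread between cells of the thinned main acinar-like class was largest for *Esp15* in every library. Its variance-to-mean ratio was 2.75, 2.39 and 2.08, where 1 is the value for pure sampling. *Esp6* was at 1.65, 1.52 and 1.43, *Esp18* at 1.18, 1.19 and 1.15 and *Esp16* in the male libraries at 1.52 and 1.40. Pearson's r between genes over the thinned cells was 0.35 and 0.33 for *Esp15* with *Esp16* in the male libraries (n = 1339 and 1778 cells). For *Esp6* with *Esp15* it was 0.14, 0.25 and 0.25. For *Esp6* with *Esp18* it was -0.02, 0.09 and 0.12. The cells of a library share a pool and a fixed total of UMIs, so these are descriptions, and the weak ones are no finding.

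The 11 other *Esp* genes were rarer than *Esp6*, *Esp15* and *Esp18* in every library, and rarer than *Esp16* in the male libraries, whereas in the female library *Esp31*, *Esp4*, *Esp36* and *Esp3* stood above *Esp16*. *Esp31* was at 832 CPM in female main acinar-like cells against 186 and 254 CPM in the male ones, and *Esp4* at 262 against 76.7 and 92.0 CPM. *Esp36* was at 69.4 against 7.67 and 5.96 CPM, and *Esp3* at 54.0 against 16.5 and 16.1 CPM. These were thus higher in the female library. *Esp24* (0.727 against 236 and 418 CPM), *Esp38* (6.54 against 49.0 and 44.1 CPM), *Esp23* (5.40 against 29.6 and 31.98 CPM), *Esp34* (1.11 against 6.91 and 9.18 CPM) and *Esp1* (0.208 against 4.86 and 5.39 CPM) were lower there. *Esp22* was at 0.450 against 2.26 and 0.631 CPM. *Esp8* had only 33 UMIs in all kept cells.

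*Esp4* was called higher with TMM scaling in Car6hi-like cells (1.42 ± 0.20, adjusted p = 9.3e-08), where 2.94% of genes were, whereas the other *Esp* genes tested there were called lower. It stood at 724, 564 and 566 CPM against 262, 76.8 and 91.9 CPM in all other acinar-like cells. It was higher in each library. It was also above free RNA of 10 to 100 UMI barcodes there (edgeR, 2.54 ± 0.33, adjusted p = 1.9e-05), where 60.5% of the 708 genes tested were called higher. *Esp4* was above this free RNA in Ltf+-like cells too (1.38 ± 0.35, adjusted p = 4.7e-04), where 67.9% of genes were. It was called lower than free RNA in main acinar-like cells (-0.89 ± 0.25, adjusted p = 0.0078), where 5.51% of genes were. The same held in endothelial-like cells (-0.80 ± 0.36, adjusted p = 0.030), where 1.37% of genes were.

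**Figure D5:**
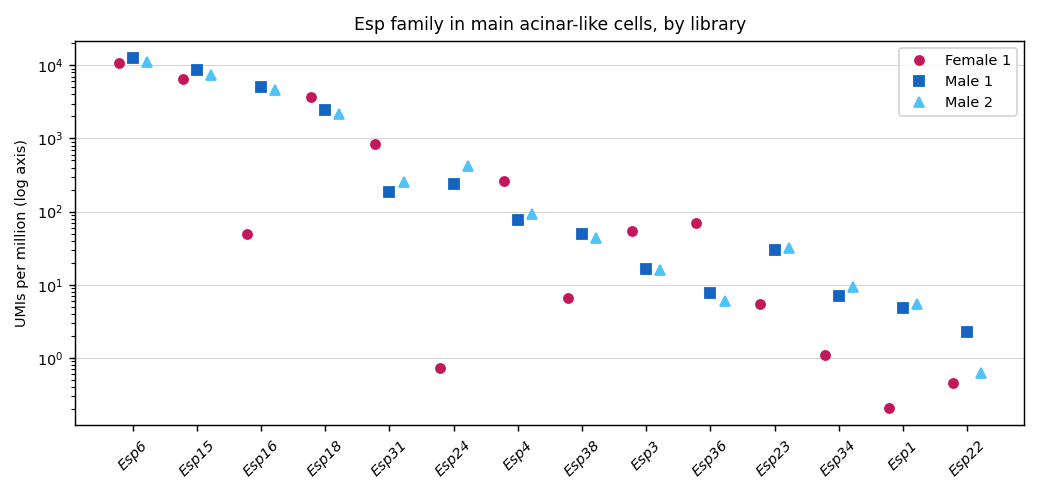
*Esp* family genes with at least 100 UMIs in all kept cells, in main acinar-like cells (UMIs as CPM, log axis, 1 point per library), ordered by total UMIs. *Esp16* and *Esp24* show the widest gap between the female point and both male points, which are the higher ones.

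Across 39 points (13 classes in 3 libraries), the gene most like *Esp6* in log2(CPM + 1) was *Agr2*, an endoplasmic reticulum disulfide isomerase (Pearson's r = 0.96), followed by *Scgb1b2* and *Gm12888* (both 0.89). For *Esp15* these were the secretoglobins *Scgb1b24* (0.91), *Scgb2b24* (0.90) and *Scgb1b2* (0.89), and for *Esp16* *Scgb2b12*, *Scgb1b12* and *Scgb2b3* (each 0.97). For *Esp18* they were the tight junction gene *Ocln* (0.73), the potassium channel subunit *Lrrc26* (0.71) and the odorant-binding lipocalin *Obp1a* (0.70). Among the 4 genes, *Esp6* and *Esp15* were most alike (0.88), while *Esp16* and *Esp18* were not (-0.08). *Esp16* was at 0 to 52.6 CPM at the female points and at 2163 CPM or more at the male ones. Its values of r thus rest largely on the split between the female and male libraries. The points share libraries, depth and free RNA, so the values describe likeness over 12003 genes searched and carry no test.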

How the data were processed

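Gene-by-barcode UMI counts, made by the authors with Cell Ranger 6.1.2 on mm10, were deposited as whole numbers before decontamination and doublet removal. Barcodes with over 500 UMIs, over 200 genes and under 15% mitochondrial UMIs were kept, and doublets were removed with scrublet in scanpy 1.11.5. Cells were clustered in Seurat 5.3.0 with CCA integration, without tear-product, mitochondrial, ribosomal and sex genes other than markers. Some naming rules were set after seeing clusters. UMIs were summed per class and library and tested in edgeR 4.0.16 (filterByExpr, quasi-likelihood, library as block since both arms of a library come from 1 suspension, Benjamini-Hochberg, threshold 0.05), with DESeq2 1.42.0 as an alternative. Other scalings, filters, free-RNA barcodes and omissions of each library were tried as well. For free RNA, library sizes were set to the 6 reference genes. On simulated counts for the Ltf+-like comparison (10944 genes) with 200 genes changed 4-fold, 73.0% were recovered and 6.41% of calls were false. Apart from these changes, equally many up and down, both simulated arms had the same composition. The simulation therefore cannot give the error rate of calls that depend on the scaling. Named genes were the 4 members, other *Esp* genes, the reference genes and the 3 genes most like each member. The members and lists were chosen with earlier results of these data known. Protein sequences were not used here.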

Additional observations from a re-analysis of the deposited data

Results flagged for a closer look

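In some comparisons the female library moved one way and both male libraries the other, and none of these differences was tested, since there is 1 female library. The value is the log2 ratio of a class to its comparison cells, for the female library, Male_1 and Male_2 in that order. *Esp18* in Car6hi-like cells was at -0.88, 0.38 and 0.32 in CPM, while per reference UMI it was higher in all 3. Per reference UMI, *Esp16* was at 0.23, -0.46 and -0.26 in Car6hi-like cells, at 0.35, -0.28 and -0.06 in MEC-like cells and at 0.14, -0.28 and -0.07 in duct-like cells, and the female values rest on 22, 23 and 67 UMIs. *Esp15* in Ltf+-like cells was at 0.13, -0.04 and -0.10, and *Esp18* in cells of high mitochondrial share was at 0.10, -0.04 and -0.10.

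Epithelial clusters that were given no class, with 786 cells, entered no comparison and still held 65497 UMIs of *Esp6*, 43521 of *Esp15*, 19626 of *Esp16* and 15935 of *Esp18*. Their leading genes were macrophage, mixed secretoglobin or endothelial genes.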

How the results depend on the processing

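The calls of the 4 genes between classes depended most on the scaling. Of the 4 called with TMM scaling in each class comparison, total UMIs left 2 in Car6hi-like cells, 0 in Tfrchi-like cells, 2 in cells of high mitochondrial share and 1 in Ltf+-like cells. Reference-gene scaling left 1 in Car6hi-like, 2 in Tfrchi-like, 2 in RNA-rich, 0 in high-mitochondrial, 2 in Ltf+-like, 1 in duct-like and 0 in MEC-like cells, calls of the opposite direction included. A mitochondrial share under 5% left 1 in RNA-rich and 2 in Ltf+-like cells, and over 3000 UMIs per cell, added after seeing the data, left 1 in Ltf+-like cells. Leaving out 1 library gave 2 to 4 calls in Car6hi-like, 0 to 4 in Tfrchi-like, 1 to 4 in RNA-rich, 0 to 4 in high-mitochondrial and 1 to 4 in Ltf+-like cells, and 4 each in duct-like and MEC-like cells. The directions that turned with reference-gene scaling were as follows, as log2 changes by class. *Esp6* was at 0.49 (Car6hi), 0.30 (Tfrchi), 0.52 (Ltf+), 0.037 (duct) and 0.00068 (MEC). *Esp18* was at 1.03 (Car6hi), 0.13 (Tfrchi), 0.91 (Ltf+) and 0.85 (duct). *Esp15* was at 0.45 (Tfrchi). *Esp16* was at 0.19 (Tfrchi). With total UMIs *Esp15* was at 0.046 (Tfrchi). *Esp18* was at 0.32 (Ltf+).

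Against free RNA, leaving out 1 library gave 0 to 2 calls in every class other than duct-like and MEC-like cells (0 to 4) and fibroblast-like cells (0). Barcodes with 20 to 50 UMIs left 0 in Car6hi-like and 1 in Ltf+-like cells, as did the fit with no filter on low counts. Barcodes with 500 to 2000 UMIs, added after seeing the data, gave 1 call in acinar-like cells. Directions turned there, where *Esp6* was at -0.068 (acinar), -0.0027 (duct), -0.038 (MEC), -0.14 (fibroblast), -0.0702 (endothelial), -0.049 (lymphoid) and -0.12 (myeloid). *Esp16* was at -0.031 (Car6hi), -0.62 (Ltf+) and -0.11 (fibroblast). *Esp15* was at -0.0904 (duct), -0.083 (MEC), -0.27 (fibroblast), -0.052 (endothelial), -0.10 (lymphoid) and -0.12 (myeloid). *Esp18* was at -0.064 (fibroblast). TMM in place of the reference genes gave 4 calls in every class but Ltf+-like (1) and Car6hi-like cells (0). Directions turned there too, where *Esp6* was at -0.32 (Car6hi), -0.82 (Ltf+), -2.43 (duct), -2.59 (MEC), -2.44 (fibroblast), -2.24 (endothelial), -1.55 (lymphoid) and -1.95 (myeloid). *Esp16* was at -0.62 (Car6hi), -1.57 (Ltf+), -2.00 (duct), -2.15 (MEC), -2.12 (fibroblast), -1.83 (endothelial), -1.09 (lymphoid) and -1.55 (myeloid). *Esp15* was at -1.11 (Ltf+), -2.35 (duct), -2.46 (MEC), -2.41 (fibroblast), -2.06 (endothelial), -1.44 (lymphoid) and -1.78 (myeloid). *Esp18* was at -0.42 (Ltf+), -1.62 (duct), -2.59 (MEC), -2.47 (fibroblast), -2.26 (endothelial), -1.56 (lymphoid) and -1.89 (myeloid). With 1 library left out, *Esp15* in Car6hi-like cells ranged from -0.22 to 0.20 and *Esp16* in Ltf+-like cells from -0.069 to 0.47. The cause of these changes was not tested.

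Both sides of a class comparison come from the same libraries, so the library was a block. With no replicate block, 1 of the 4 genes was called in Car6hi-like, 1 in RNA-rich, 0 in high-mitochondrial and 1 in Ltf+-like cells, and against free RNA 0 in Car6hi-like, 1 in Ltf+-like and 0 in duct-like cells. No paired analysis was possible because the female and male libraries come from different pools and 1 number is all they share.

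The female to male log2 ratios with tear-product genes left out of the total were -0.67 for *Esp6*, -0.83 for *Esp15*, -7.15 for *Esp16* and 0.14 for *Esp18*, and with all called barcodes -0.52, -0.70, -7.06 and 0.33. Thinning to 500 UMIs gave shares of cells with a UMI of 99.3% for *Esp6*, 91.1% for *Esp15*, 84.5% for *Esp16* (male libraries) and 68.4% for *Esp18*, and variance-to-mean ratios of 1.21, 1.72, 1.20 and 1.13. Free RNA, with a composition close to that of acinar-like cells, limits what can be said of classes outside the acini. So do the shallow male duct-like, MEC-like, Tfrchi-like and non-epithelial cells. The 85 female Ltf+-like cells limit that library's values.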
